A study of Mus musculus with 12 samples.

Results

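The 7 genes described here are the mouse MHC class II genes Cd74, H2-Aa, H2-Ab1, H2-Eb1, H2-DMa, H2-DMb1 and Ciita. They were taken by gene symbol from a table of expected counts of 22236 genes, and all 7 passed the filter on low counts that left 15853 genes for testing. RNA came from the whole hippocampus of male mice aged 3 to 5 months of the strains C57BL/6J (B6) and DBA/2J (D2), which carry different H2 haplotypes. Knockdown (KD) mice had received AAV9-shRNA-Hp1bp3 in both hippocampi, a virus that makes a short hairpin RNA against the chromatin protein gene Hp1bp3. Control (Ctrl) mice had received the scrambled hairpin, labelled AAV-scrmb-shRNA, so every mouse carried a virus, and tissue was taken at least 6 weeks later. Each combination of strain and treatment had 3 libraries.

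MHC class II molecules carry peptides from engulfed proteins to the surface of antigen-presenting cells, where CD4+ T cells read them. Each molecule is a pair of an alpha and a beta chain. The invariant chain (Cd74) blocks the groove and guides the pair to the endosome, and the DM heterodimer (H2-DMa with H2-DMb1 or H2-DMb2) exchanges the last piece of that chain for a peptide. CIITA, the product of Ciita, does not bind DNA itself, but is recruited to class II promoters by factors bound at short motifs called the X and Y boxes. In the healthy brain class II RNA is sparse and comes mainly from macrophages of the meninges, vessels and choroid plexus, while activated microglia can also make it.

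Promoter stretches are shown for the members whose reference promoter holds an X core followed by a Y core, since these are the letters through which CIITA acts. The sequences are those of RefSeq for the reference genome GRCm38.p6, which is the B6 sequence, and the letters of D2 were not used here. Of the 7 members, 4 (H2-Aa, H2-Eb1, H2-DMa and H2-DMb1) were matched in the promoter table, and Cd74, H2-Ab1 and Ciita were not. The capitals mark the X core, searched as CNNGNAAC, and the Y core, searched as GATTGG. Each is printed on the strand of its gene, with H2-Aa from chr17:34287852-34287932 (minus strand), H2-Eb1 from chr17:34305748-34305827 (plus strand) and 30 bases around the X core of H2-DMb1 from chr17:34153083-34153112 (plus strand). The H2-DMb1 stretch lies before the RefSeq start but inside the span that GENCODE M21 gives this gene, so whether it is promoter or transcribed depends on the annotation.
H2-Aa: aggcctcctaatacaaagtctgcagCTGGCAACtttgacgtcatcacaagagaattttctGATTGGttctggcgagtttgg
H2-Eb1: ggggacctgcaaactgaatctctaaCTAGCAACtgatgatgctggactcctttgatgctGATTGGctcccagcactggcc
H2-DMb1: atgaggtttacCTAGTAACtgatgatgcta
The X and Y cores were separated by 27 bases in H2-Aa, 26 in H2-Eb1 and 27 in H2-DMb1. Of 32851 promoters of 300 bases, 39.1% held the X core and 16.1% held the Y core on either strand. An X core followed 15 to 40 bases on by a Y core was held by 0.338% on either strand. On the strand of the gene, as the class II promoters were searched, 0.186% held this pair. The motif letters and the spacing were chosen with these promoters in view. The pair was also found at H2-Eb2, H2-Oa and H2-Ob, and not on the gene's strand at either listed start of H2-DMa or at H2-DMb2. That says only that an X core followed at this spacing by a Y core was missing there. Each of those windows held at least the X core when either strand was searched.

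On the GRCm38 annotation of GENCODE M21, 5 members lay within the class II region of chromosome 17. H2-DMa spanned chr17:34119541-34139101, H2-DMb1 chr17:34153072-34160230 and H2-Ab1 chr17:34257689-34269419. H2-Aa, on the minus strand, spanned chr17:34282744-34287823, and H2-Eb1 spanned chr17:34305867-34316674. Cd74 lay at chr18:60803848-60812652 and Ciita at chr16:10480059-10528418. Reads counted over the whole gene stand behind each value, so no value belongs to a single exon or transcript.

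Libraries held about 18210000 to 39420000 expected counts. Hp1bp3, the target of the hairpin, fell between 8826 and 9372 normalized counts in B6 Ctrl and between 5429 and 7633 in B6 KD. In D2 it read 6504 to 7002 in Ctrl and 4878 to 6941 in KD, and the library labelled D2 KD 3 lay within the range of D2 Ctrl. Hippocampal neuron markers were present in all 12 libraries, with a summed level of 442 to 992 CPM (counts scaled to a common library total). Within this sum, Zbtb20 read 8637 to 13130 normalized counts in B6 and 845 to 1345 in D2. Prox1 read 2033 to 3414 in B6, 254 to 1539 in D2 Ctrl and 212 to 1079 in D2 KD, so it was uneven within D2. Neurod6, Wfs1 and Calb1 overlapped between the strains. How this bears on the class II values was not tested. Choroid plexus markers were uneven within every group, from 72.3 to 5236 CPM. In each strain the mouse numbers of KD and Ctrl did not overlap, so treatment and the order of the mice cannot be told apart. No label says that a sample pools animals, and p-values measure the spread between these samples.

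The members differed widely in level. Expected counts per library ran from 65 to 1172 for Cd74 and from 186 to 504 for H2-DMa, but only from 6 to 54 for Ciita and from 15.5 to 173 for H2-DMb1, so the last pair rest on few reads. Per kilobase of exon, as CPM scaled by TMM, the mean level in B6 Ctrl was 6.25 ± 4.18 (SD, n = 3) for Cd74, 3.09 ± 0.417 for H2-DMa and 1.88 ± 1.01 for H2-Eb1. H2-Aa followed with a level of 1.17 ± 0.860, H2-Ab1 with 0.976 ± 0.651 and H2-DMb1 with 0.882 ± 0.350. Ciita was lowest, at 0.112 ± 0.0436 per kilobase. In this order the ranges of Cd74 and H2-DMa overlapped, as did those of each neighbouring pair from H2-Eb1 to H2-DMb1, while H2-Eb1 lay below H2-DMa and Ciita below H2-DMb1. The lengths join the exons of all annotated transcripts of a gene, so this order depends on the annotation. Without division by length, mean normalized counts in B6 Ctrl were 134 for H2-Aa and 110 for H2-Eb1.

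The order per kilobase was not the same in each group. In B6 KD the level of H2-Eb1, 5.48 ± 2.52 per kilobase (SD, n = 3), was second to that of Cd74, 18.6 ± 10.4, and H2-DMa came after H2-Ab1 at 2.85 ± 0.216. In D2 KD the level of Cd74 was 5.35 ± 1.07, followed by H2-DMa at 3.62 ± 0.262, H2-Ab1 at 2.23 ± 0.632 and H2-Eb1 at 0.953 ± 0.158. Ciita was lowest in all 4 groups, and its range did not reach that of the member above it in any of them.

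The knockdown comparison in B6 asked whether class II RNA differs when Hp1bp3 is lowered. H2-DMb1 rose and was the only member to pass the test, while Cd74, H2-Aa, H2-Ab1 and H2-Eb1 had estimates at least as large but a wide spread between libraries. H2-DMa, the alpha chain of DM, and Ciita, the regulator of the group, had small estimates. None of the 7 passed in D2.

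Cd74 read 450, 429 and 72.4 normalized counts in the B6 Ctrl libraries 1, 2 and 3, and 615, 1534 and 645 in B6 KD. In D2 it read 200, 111 and 463 in Ctrl and 213, 318 and 280 in KD. The B6 KD libraries all lay above B6 Ctrl, with replicate 3 of B6 Ctrl far below its group and replicate 2 of B6 KD far above its own, and in D2 the KD libraries lay inside the range of Ctrl. The log2 fold change of KD against Ctrl in B6 was 1.58 ± 0.66 (SE), with an adjusted p of 0.207 by edgeR's quasi-likelihood test with Benjamini-Hochberg adjustment over all genes. In D2 it was 0.058 ± 0.65 (adjusted p = 1).

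H2-Aa, the alpha chain of the I-A molecule, read 179, 202 and 20.9 normalized counts in B6 Ctrl and 303, 685 and 329 in B6 KD. The same chain read 77.1, 34.3 and 146 in D2 Ctrl and 106, 118 and 96.6 in D2 KD. The groups were again apart in B6 and overlapping in D2, and the same B6 Ctrl library was low. Its log2 fold change reached 1.73 ± 0.68 in B6, where the adjusted p was 0.184, against 0.30 ± 0.69 in D2 with an adjusted p of 1.

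H2-Ab1, the beta chain that pairs with H2-Aa, read 104, 106 and 17.4 normalized counts in B6 Ctrl and 230, 411 and 247 in B6 KD. In D2, 120, 66.8 and 215 counts were found in Ctrl, and 217, 180 and 120 in KD. Its log2 fold change in B6, 1.99 ± 0.59, was the largest of the 7 members, and its adjusted p was 0.0915. The value in D2 was 0.35 ± 0.57 (adjusted p = 1), and the D2 groups overlapped.

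H2-Eb1, the beta chain of the I-E molecule, read 139, 149 and 41.8 normalized counts in B6 Ctrl and 192, 478 and 281 in B6 KD. It read 34.8, 39.4 and 92.1 in D2 Ctrl and 46.4, 56.0 and 65.0 in D2 KD. All B6 KD libraries lay above B6 Ctrl, and D2 KD lay within D2 Ctrl. KD exceeded Ctrl by 1.54 ± 0.51 on the log2 scale in B6 without passing the test (adjusted p = 0.118), and the estimate for D2 was 0.0031 ± 0.53 (adjusted p = 1).

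H2-DMb1, the beta chain of DM, read 39.4, 64.4 and 30.5 normalized counts in B6 Ctrl and 82.2, 141 and 128 in B6 KD. The D2 values were 34.8, 25.7 and 47.7 in Ctrl and 28.5, 28.4 and 34.4 in KD. The gene rose in B6 by 1.42 ± 0.32 on the log2 scale (adjusted p = 0.0473, higher in 3 of 3 KD libraries), and its log2 fold change in D2 was -0.26 ± 0.34 (adjusted p = 1). The call was narrow: it was kept without B6 Ctrl 2, D2 Ctrl 3 or D2 KD 3, and lost without any of the other 9 libraries, with adjusted p from 0.0533 to 0.204. Reads of H2-DMb1 are in part shared with the near-identical H2-DMb2, as its fractional counts show, so its own level is uncertain. The sum of both genes was 63.1, 97.7 and 54.1 normalized counts in B6 Ctrl and 122, 168 and 148 in B6 KD, which also did not overlap.

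H2-DMa, the alpha chain of DM, read 372, 283 and 310 normalized counts in B6 Ctrl and 271, 315 and 289 in B6 KD. It read 474, 319 and 409 in D2 Ctrl and 389, 343 and 396 in D2 KD. The groups overlapped in both strains, and B6 Ctrl 3, which was low for Cd74 and the I-A and I-E chains, was unremarkable here. The estimates were -0.12 ± 0.15 (log2) for B6, with an adjusted p of 0.707, and -0.092 ± 0.15 for D2, with an adjusted p of 1.

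Ciita read 20.5, 31.0 and 45.3 normalized counts in B6 Ctrl and 45.8, 61.5 and 31.2 in B6 KD. In D2 its counts were 26.3, 10.3 and 18.9 in Ctrl and 21.1, 20.5 and 23.0 in KD. The groups overlapped in both strains, and B6 Ctrl 3, lowest of its group for Cd74, was the highest of its group for Ciita. The log2 fold change of Ciita came to 0.52 ± 0.38 in B6 (adjusted p = 0.467), and D2 gave 0.18 ± 0.41 with an adjusted p of 1. Its reads were few, and whether a change of this size could be detected at this depth and spread was not tested.

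**Figure D1:**
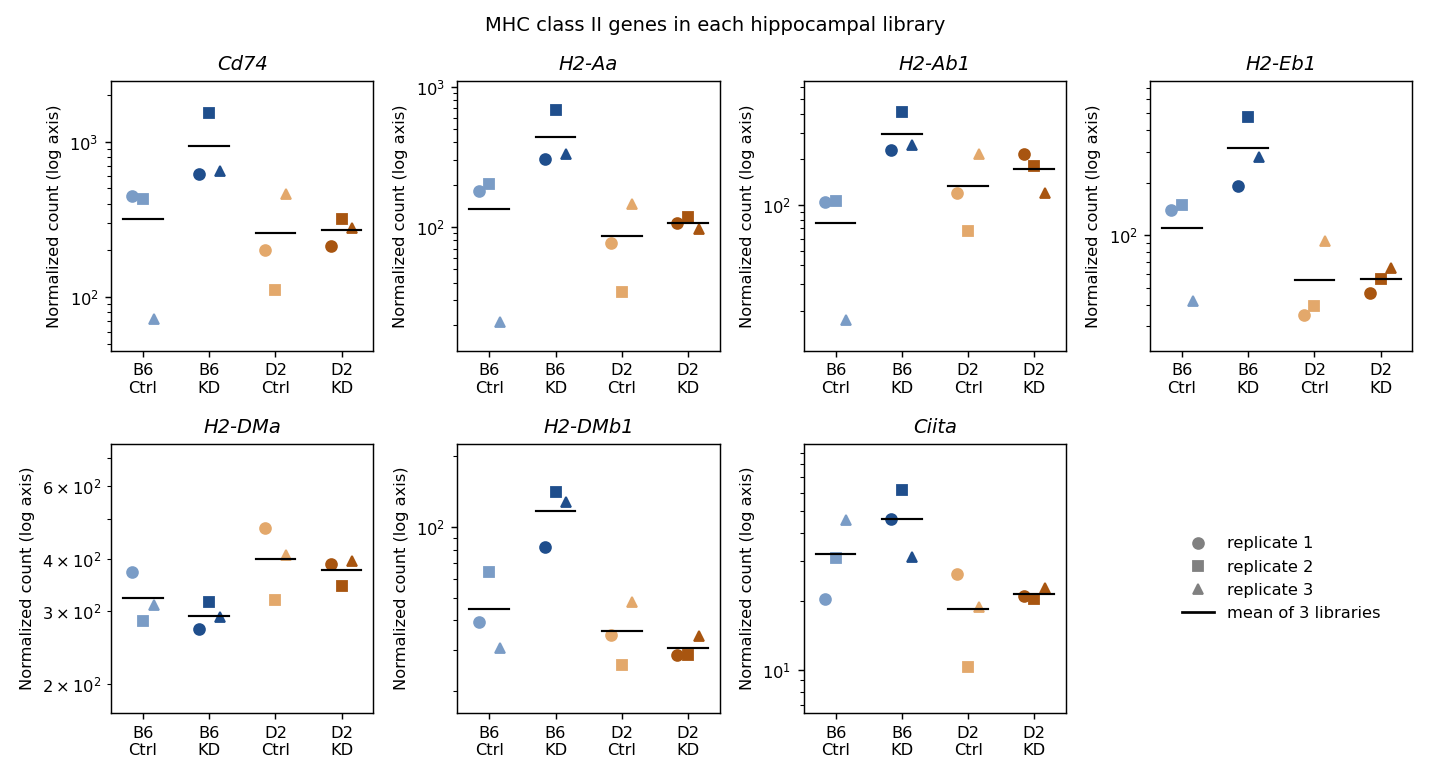
Normalized counts (log axis, a separate scale for each gene) of the 7 MHC class II genes in the 12 libraries, by strain and treatment. Symbols are replicates 1 to 3 and bars are group means; the B6 KD libraries lie above all B6 Ctrl libraries for 5 genes, while H2-DMa and Ciita overlap.

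Of the 7 members, 1 passed the test in B6, where 2.64% of all 15853 genes did (418 genes, 279 of them higher). All genes with a higher level and an adjusted p under 0.05 made up 1.76%. An unadjusted p under 0.05 was found for 5 of 7 members and for 20.6% of all genes, and in these 5 the level was higher, as for 11.9% of all genes. The B6 KD libraries lay wholly above B6 Ctrl for 5 of 7 members and for 12.6% of all genes, and wholly below it for 0 members and 16.2% of all genes. The median log2 fold change of the members in B6 was 1.54, against 0.0025 over all genes tested. In D2 the test passed 0 of 7 members and 0% of all genes, with an unadjusted p under 0.05 for 0 members and 2.85% of all genes, and the median was 0.058 against 0.0041. D2 KD lay wholly above D2 Ctrl for 0 members and 2.99% of all genes, and wholly below for 0 members and 3.06%. By DESeq2 0 members and 0.00525% of the genes it tested (1 gene) were called in D2.

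Over both strains together, edgeR called 0 of 7 members and 0% of all genes. An unadjusted p under 0.05 was found for H2-Ab1, with a log2 fold change of 1.17 ± 0.41 (adjusted p = 0.164), and for H2-DMb1, with 0.58 ± 0.23 (adjusted p = 0.215), as it was for 19.2% of all genes. DESeq2 called 1218 genes there, 7.4% of those it tested, and none of the 7 members.

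The strain by treatment interaction tested whether the knockdown effect differed between the strains. None of the 7 members passed, and 0% of all genes did. The interaction (D2 minus B6, log2) was -1.52 ± 0.92 for Cd74, -1.44 ± 0.97 for H2-Aa, -1.64 ± 0.82 for H2-Ab1 and -1.54 ± 0.73 for H2-Eb1. For H2-DMb1 it was -1.68 ± 0.47, and this was the only member with an unadjusted p under 0.05, with an adjusted p of 0.822, as had 5.91% of all genes. DESeq2 called 12 genes in the interaction, 0.0698% of those it tested, and no member. The larger estimates in B6 than in D2 were therefore not shown to differ between strains.

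**Figure D2:**
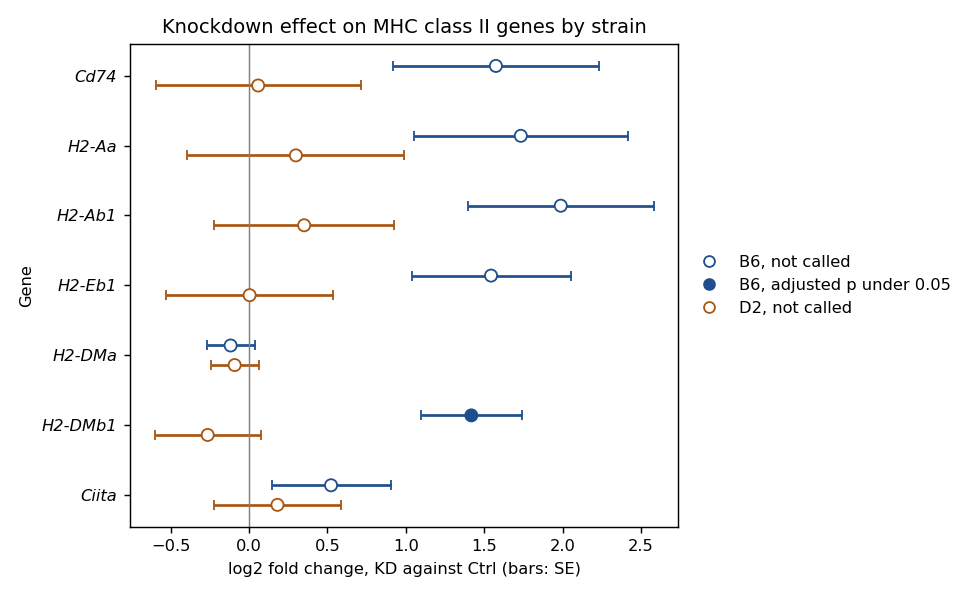
Log2 fold change of KD against Ctrl (x axis, points, with SE as bars) for the 7 genes in B6 (blue) and D2 (brown) from edgeR. The filled point, H2-DMb1 in B6 at 1.42, is the only one with an adjusted p under 0.05; in D2 the estimates run from -0.26 to 0.35.

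The tools differed in how many members they called in B6. DESeq2 called H2-Ab1 (adjusted p = 0.0105), H2-Eb1 (adjusted p = 0.0325) and H2-DMb1 (adjusted p = 0.00192), where it called 10.1% of all genes. Limma-voom called H2-DMb1 alone (adjusted p = 0.0428), where it called 2.32%. Leaving out the low library B6 Ctrl 3 took the log2 fold change in B6 to 1.08 for Cd74, 1.195 for H2-Aa, 1.49 for H2-Ab1, 1.12 for H2-Eb1 and 1.18 for H2-DMb1, and no member passed (lowest adjusted p 0.161). Without that library, 0 genes of the whole table passed in B6.

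Markers of several other cell types had mostly higher estimates in B6 KD than in B6 Ctrl. In bulk tissue more cells of a type and more RNA per cell cannot be told apart. The 8 microglia markers summed to 388 to 436 CPM in B6 Ctrl and 491 to 751 in B6 KD, and 8 of 8 had higher estimates. For 6 of them the unadjusted p was under 0.05, as for 11.9% of all genes in that direction, and 0 were called. In D2 their sum was 371 to 549 CPM in Ctrl and 367 to 549 in KD. With a microglia score as covariate, the log2 fold change in B6 was 0.48 for Cd74, 0.72 for H2-Aa, 1.08 for H2-Ab1, 1.04 for H2-Eb1 and 1.37 for H2-DMb1, none of them called. In that fit 1 gene of the whole table was called. Over the 12 libraries, as deviations from the strain mean, the microglia score and the mean of the members had r = 0.75, given as a description. B6 Ctrl 3 was lowest of its group in both the microglia sum (388 CPM) and Cd74, while in B6 KD the highest microglia sum (751 CPM) was in replicate 1 and the most Cd74 in replicate 2.

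Blood and border cells gave lower sums. The 4 monocyte and neutrophil markers (Ccr2, Ly6c2, S100a8 and S100a9) read 0.351 to 3.17 CPM in B6 Ctrl and 1.76 to 13.5 in B6 KD, with 4 of 4 estimates higher. The border macrophage list read 7.17 to 22.0 CPM and then 14.2 to 23.7, with 7 of 7 estimates higher. The 7 dendritic cell markers read 26.4 to 32.5 CPM in Ctrl and 30.6 to 41.4 in KD, with 4 of 6 tested estimates higher, and Ccr7 did not pass the filter. Flt3 and Zbtb46 had the most counts of this list in B6 Ctrl. Flt3 read 360, 467 and 597 normalized counts in B6 Ctrl and 405, 370 and 258 in B6 KD. Itgax read 16.4, 86.2 and 43.6 and then 300, 429 and 123, so the sum mixes genes that moved differently. The T cell list read 0.694 to 1.48 CPM and then 1.44 to 8.24, and Cd3d, Cd3e, Cd3g, Cd8b1 and Cd2 did not pass. The B cell receptor genes Cd79a and Cd79b had log2 fold changes of 1.25 ± 0.46 and 1.26 ± 0.52 in B6, both with an unadjusted p under 0.05 and neither called. No marker in these lists was called in B6. In D2, 4 of 4 monocyte and neutrophil markers had higher estimates, with a median log2 fold change of 1.38. So had 7 of 7 border macrophage markers, with a median of 0.35. Dendritic cell markers were higher for 3 of 6 tested, B cell markers for 1 of 2 and T cell markers for 0 of 2. The median of the members in D2 was 0.058, and none of these markers was called there. The part of these cells in the class II result was not tested.

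The choroid plexus, which holds class II positive macrophages, was unevenly present. Its 8 markers summed to 83.4, 2785 and 159 CPM in the B6 Ctrl libraries 1, 2 and 3, of which the first pair had similar Cd74. The sums were 156, 4259 and 5173 CPM in B6 KD. In B6, 8 of 8 choroid plexus markers had higher estimates in KD and 0 were called. Their median log2 fold change was 1.70, against 1.54 for the members. With a choroid plexus score as covariate, H2-DMb1 had a log2 fold change of 1.21 in B6 (adjusted p = 0.0755). No member was called in that fit, and 0 genes in the whole table were called. The part of the choroid plexus in the class II result was not tested further. The stromal list, which marks meninges and vessel walls, read 115 to 549 CPM in B6 Ctrl and 182 to 571 in B6 KD, with 5 of 5 estimates higher and 0 called.

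Other genes of the class II pathway were counted by list. The processing list held 9 tested genes, namely endosomal proteases and a thiol reductase that prepare peptides or cut the invariant chain, and the ubiquitin ligases March1 and March8, which control the turnover of class II proteins. Of the 9, 4 were called in B6, all higher, against 1.76% of all genes called higher, and the median log2 fold change of the list was 0.90. The log2 fold change was 0.0074 ± 0.26 for March1 (adjusted p = 0.994) and 0.0095 ± 0.10 for March8 (adjusted p = 0.973). Ctsl (cathepsin L) rose by 0.90 ± 0.18 on the log2 scale (adjusted p = 0.0400), Lgmn, the asparagine endopeptidase, by 0.68 ± 0.14 (adjusted p = 0.0410), Ctsd (cathepsin D) by 1.11 ± 0.26 (adjusted p = 0.0488) and Ifi30, the lysosomal thiol reductase, by 1.48 ± 0.34 (adjusted p = 0.0497). Ifi30 read 74.6, 133 and 64.5 normalized counts in B6 Ctrl and 242, 297 and 207 in B6 KD, so these groups did not overlap.

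The factors that recruit CIITA to the X and Y boxes moved little. Of 7 tested (Rfx5, Rfxap, Rfxank, Nfya, Nfyb, Nfyc and Creb1), 0 were called in B6, and the median log2 fold change was -0.018. Rfxap, a subunit of the RFX complex, had the smallest p, with a log2 fold change of -0.32 ± 0.10 (adjusted p = 0.0988).

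Interferon-gamma is the main known inducer of Ciita. Irf8, a transcription factor of myeloid cells that interferon-gamma induces, rose in B6 by 1.61 ± 0.35 on the log2 scale (adjusted p = 0.0443). It read 178, 212 and 190 normalized counts in B6 Ctrl and 623, 715 and 412 in B6 KD, so the groups did not overlap. Ifng itself had at most 3 counts in any library and was not tested. Of all genes, 1.76% were called higher in B6. Results of other genes of this pathway are not reported here, so Irf8 is a single gene of it. Whether interferon-gamma acted on Ciita in these mice was not tested.

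Costimulatory and inhibitory ligands act beside class II at the contact with T cells. Of 5 tested, 1 was called in B6, against 2.64% of all genes. Cd274, the inhibitory ligand PD-L1, rose by 2.09 ± 0.44 on the log2 scale (adjusted p = 0.0415). The median of the list was 0.72. No gene of these lists was called in D2, over both strains or in the interaction. No gene in the whole table was called in B6 when B6 Ctrl 1, B6 Ctrl 3, B6 KD 1, B6 KD 2 or D2 Ctrl 1 was left out, so the calls above rest on each of these libraries.

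The remaining class II genes gave no call for knockdown. In B6, H2-Ob, a chain of the DO molecule that restrains DM, had a log2 fold change of 1.02 ± 0.38 (adjusted p = 0.159). H2-Oa, the other DO chain, had 1.27 ± 0.56 (adjusted p = 0.233) and H2-DMb2 0.13 ± 0.40 (adjusted p = 0.887). H2-Eb2 read 0 in all B6 Ctrl libraries and 3.39, 7.85 and 2.23 normalized counts in B6 KD, and did not pass the filter.

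The strains were compared within each treatment, with reads aligned to the genome of each mouse's own strain. How alignment to the different H2 haplotypes bears on the values was not tested. In Ctrl, none of the 7 members passed the test, against 14% of all genes, and the libraries of both strains overlapped for all 7, while 13.9% of all genes lay wholly higher in D2 and 17.8% wholly lower. No member had an unadjusted p under 0.05, where 23.2% of all genes had. DESeq2 also called no member there, and 2645 genes in all (15.1%). The log2 difference (D2 minus B6) ran from -0.97 ± 0.52 for H2-Eb1 (adjusted p = 0.317) to 0.84 ± 0.59 for H2-Ab1 (adjusted p = 0.464).

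In KD, 2 members differed between the strains. H2-Eb1 was lower in D2 by a log2 difference of -2.52 ± 0.53 (adjusted p = 0.00760) and H2-DMb1 by -1.95 ± 0.33 (adjusted p = 0.00188). These 2 of 7 members passed, against 15% of all genes. Genes called lower in D2 made up 9.05% of all genes tested. Cd74 (-1.80 ± 0.66, adjusted p = 0.103), H2-Aa (-2.05 ± 0.69, adjusted p = 0.0761), Ciita (-1.10 ± 0.39, adjusted p = 0.0889) and H2-Ab1 (-0.79 ± 0.57, adjusted p = 0.438) did not pass. An unadjusted p under 0.05 was found for 6 of 7 members and 26.3% of all genes. DESeq2 called H2-Aa besides H2-Eb1 and H2-DMb1, 3 of 7 members against 17.1% of all genes it tested. All D2 KD libraries lay below all B6 KD libraries for 6 of 7 members, as for 14.7% of all genes. H2-DMa was the exception, with D2 above B6, as for 14% of all genes, and a log2 difference of 0.35 ± 0.15 (adjusted p = 0.179).

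Both calls held when each library was left out in turn. Without B6 Ctrl 3, Cd74 (adjusted p = 0.0398) and H2-Aa (adjusted p = 0.0143) passed as well. With a microglia score as covariate, H2-Eb1 had a log2 difference of -1.86 (adjusted p = 0.211) and no longer passed. In that fit 1513 genes in all were called, against 2373 without the score. The 8 microglia markers all had lower estimates in D2 KD than in B6 KD, and 2 of them were called lower, as were 9.05% of all genes. In Ctrl, 6 of the 8 had higher estimates in D2 than in B6, and 1 was called lower in D2.

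The chains also stood in different proportions in the strains. The level of H2-Aa per kilobase was 0.811 to 1.29 times that of its partner H2-Ab1 in the 6 B6 libraries and 0.332 to 0.542 times in the 6 D2 libraries. H2-Eb1 was at 1.10 to 3.17 times the level of H2-Ab1 in B6 and 0.282 to 0.779 times in D2. These ranges did not overlap between strains in either treatment. They are descriptions with no test, made with exon lengths of the reference annotation for both strains.

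The DM chains gave a ratio that also moved with treatment. H2-DMa was at 2.14 to 4.96 times the level of H2-DMb1 in B6 Ctrl and at 1.09 to 1.61 times in B6 KD. In D2 it was at 4.18 to 6.66 times over both treatments. With H2-DMb2 added to H2-DMb1, the ratio was 0.916 to 2.87 in B6 and 3.30 to 5.74 in D2. H2-DMb2 was lower in D2 in both treatments, with a log2 difference of -1.81 ± 0.46 in Ctrl (adjusted p = 0.0217) and -2.15 ± 0.45 in KD (adjusted p = 0.00753), and the split of shared reads is uncertain for it too.

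**Figure D3:**
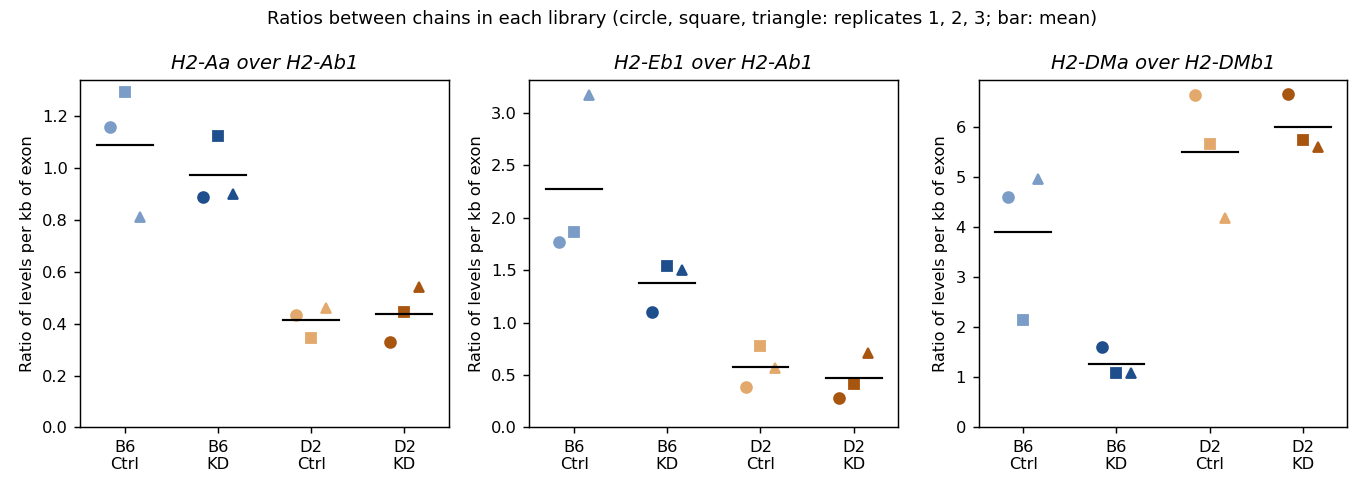
Ratio of levels per kilobase of exon (y axis, linear) between class II chains in each library, by strain and treatment, with symbols for replicates and bars for means. H2-Aa over H2-Ab1 lies at 0.811 to 1.29 in B6 and at 0.332 to 0.542 in D2, and H2-DMa over H2-DMb1 lies lower in B6 KD than in any other group.

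The partner of H2-Eb1 is the E alpha chain, which mice of the b haplotype, such as B6, are known not to make. Its gene is annotated as H2-Ea-ps, a polymorphic pseudogene at chr17:34341959-34344645. It had 0 counts in all 6 B6 libraries. In D2 it read 27.3, 18.8 and 63.2 normalized counts in Ctrl and 36.9, 29.996 and 52.6 in KD. Taking 3 counts per library as the floor for B6, it was at least 12.8-fold higher in D2 in Ctrl and at least 13.7-fold higher in KD. Its level per kilobase was 0.897 to 1.52 times that of H2-Eb1 in the D2 libraries. B6 KD had the most H2-Eb1 RNA of the 4 groups with no counts of its alpha chain.

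Across libraries the chains moved together. With each value taken as log2(TMM CPM + 1) minus its strain mean, Pearson's r over 12 libraries was 0.986 between Cd74 and H2-Aa, 0.938 between Cd74 and H2-Ab1 and 0.955 between Cd74 and H2-Eb1. Each gene's r with the mean of the other members was 0.966 for Cd74, 0.982 for H2-Aa, 0.956 for H2-Ab1, 0.952 for H2-Eb1 and 0.868 for H2-DMb1. It was 0.321 for Ciita and 0.0329 for H2-DMa. The added 1 shrinks the deviations of low genes such as Ciita, and whether it also changes their r was not tested. All r values here are descriptions with no test, since the genes share their libraries and the treatment difference in B6 enters them. B6 Ctrl 3 and B6 KD 2 form the ends of the range.

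**Figure D4:**
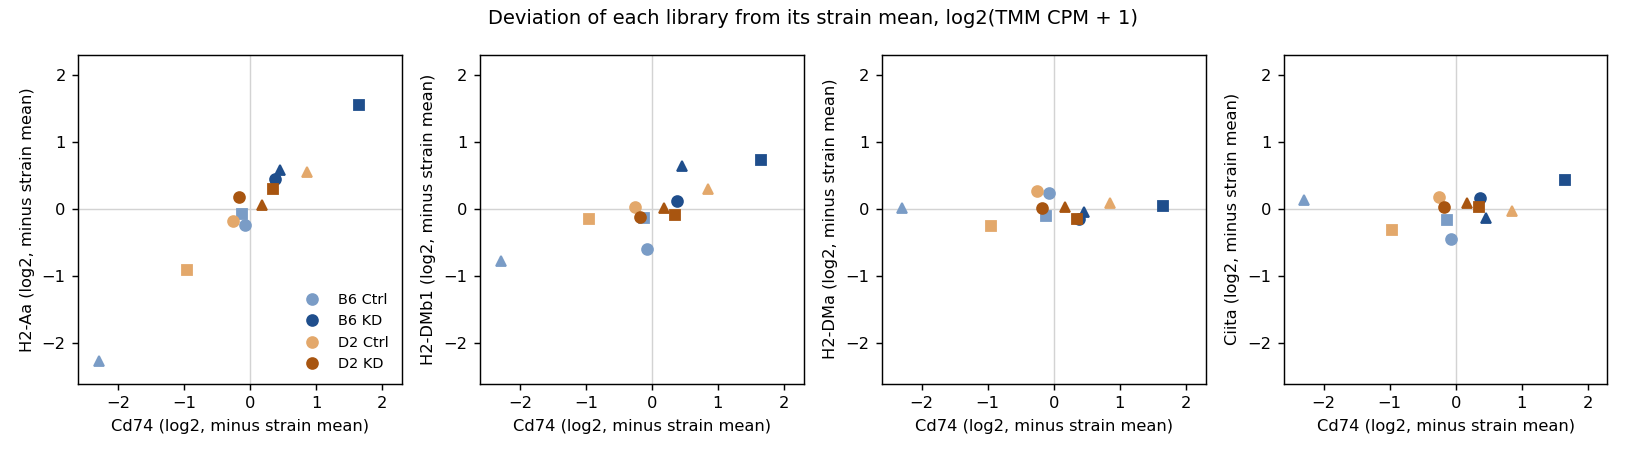
Each panel sets the deviation of Cd74 from its strain mean (x axis, log2) against that of H2-Aa, H2-DMb1, H2-DMa or Ciita (y axis, same scale) in the 12 libraries, colored by group with a symbol for each replicate. H2-Aa follows Cd74 (r = 0.986); the added 1 on the log scale shrinks the deviations of Ciita, which has few reads.

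Among 14175 other genes with a mean of at least 1 CPM, the 10 most like the mean of the members over the same 12 libraries were Lrch4 (r = 0.958), Rhbdf2 (0.952), Renbp (0.945), Sqrdl (0.935), Pskh1 (0.934), Xrra1 (0.911), Bin2 (0.908), Casp12 (0.907), Chst14 (0.907) and Podxl (0.904). These r values are the top of a ranking over many genes, and carry no test.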

How the data were processed

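The authors aligned trimmed reads to the genome of the strain each animal belonged to and estimated expression with RSEM; the submitters' processing notes name RSEM 1.2.12, Bowtie2 2.2.0, DESeq2 and GRCm38. The annotation release was not given in the sources used here. The deposited expected counts are not normalized, and were rounded to whole numbers for testing. The authors also deposited DESeq2 normalized counts, a signal per gene equal to the expected count without its decimals divided by a size factor (whole reads for 100% of 266784 values, tolerance 0.01). These were used only for the values printed per library. In the table, 27 symbols turned into dates were restored from gene identifiers.

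Genes passing filterByExpr over the 4 groups (15853) were tested in R 4.3.3 by the quasi-likelihood method (edgeR 4.0.16), using TMM scaling, robust estimation and 1 mean per group, on all 12 libraries. An adjusted p (Benjamini-Hochberg) under 0.05 was called; SEs are approximate. On simulated data with known changes the scripts were checked. DESeq2 1.42.0, limma 3.58.1 (voom), other filters, scalings and covariates, and leaving out each library were alternatives. The expected counts without their decimals, in place of rounded ones, were also tested. Replicate numbers follow the order of deposit and pair nothing. Libraries of a group differed by more than sampling noise. Levels per kilobase used exon unions of GENCODE M21.

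The members and all gene and marker lists were chosen with earlier results of these data known, so no list is independent evidence. All 7 members were named. From each pathway list, genes called in a knockdown comparison were named (at most 4 by smallest p), or else the gene with the smallest p in B6. Results of a few list genes are not reported here.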

Additional observations from a re-analysis of the deposited data

How the results depend on the processing

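The number of libraries (3 a group), their spread and, for Ciita and H2-DMb1, low counts limit what could be called. No paired analysis was possible because the labels give no replicate numbers shared by the groups. In B6 the count of members called for knockdown (1, H2-DMb1) was 3 with DESeq2 and 0 with no filter on low counts, with only the B6 libraries, and with library total, choroid plexus score or microglia score as covariate. It ran from 0 to 1 when each library was left out. For D2 against B6 in KD the count (2) was 3 with DESeq2 and with a newer quasi-likelihood method, both adding H2-Aa (adjusted p = 0.0148 and 0.0441), was 1 with the microglia score, and ran from 2 to 4 over left-out libraries. The other comparisons gave 0 members in every setting run. Over all genes, the B6 knockdown count of 418 was 1669 with DESeq2, 0 with library total or choroid plexus score, 1 with the microglia score and 0 to 790 over left-out libraries. The count over both strains, 0, was 1218 with DESeq2, 15 with the newer quasi-likelihood method and up to 799 over left-out libraries. In D2 DESeq2 called 1 gene, as did the highest left-out fit (range 0 to 1), and in the interaction it called 12. For D2 against B6 in KD, 2373 genes became 1513 with the microglia score. The causes were not tested.

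Signs turned only for values that were not called. The newer quasi-likelihood method gave H2-Eb1 -0.00104 (log2) for knockdown in D2, the interaction of H2-DMa was -0.066 with library total and -0.0039 with choroid plexus score, and H2-Ab1 was 0.36 for D2 against B6 in KD with the microglia score. Over left-out libraries the log2 change in D2 ran from -0.29 to 0.79 for Cd74, -0.058 to 0.91 for H2-Aa, -0.27 to 0.61 for H2-Eb1, -0.23 to 0.035 for H2-DMa and -0.073 to 0.51 for Ciita. The interaction ran from -0.11 to 0.18 for H2-DMa and -0.66 to 0.022 for Ciita. The D2 against B6 difference in Ctrl ran from -1.01 to 0.072 for Cd74 and -0.51 to 0.076 for H2-DMb1.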
